A study of Mus musculus with 6 samples.

Results

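Voltage-gated sodium channels open the upstroke of the action potential, and the genes of their subunits were followed in retinal ganglion cells (RGCs) of the mouse, which send the axons of the optic nerve to the brain. The set holds 7 named genes: Scn1a, Scn2a, Scn3a and Scn8a, which encode pore-forming alpha subunits, and Scn2b, Scn3b and Scn4b, which encode beta subunits. They were chosen by name and by family, with earlier results of these data known. Of the 7, 6 have an entry among the 10361 gene names of the table. The expression of Scn4b was not analysed here. Poly-A RNA of 6 libraries was measured, 2 in each of 3 groups, all labelled wild type, of strain C57/6NCrl and of cell type RGC. In the adult miR-1247 group, RGCs had been transduced with AAV2 that expressed a miR-1247-5p mimic beside the red reporter mCherry. In the adult control group the AAV2 expressed mCherry and a scramble shRNA mimic. The third group, RGCs of embryonic day 18 (E18), is labelled untreated and received no vector. Adult cells came from 10 pooled retinas for each condition and were immunopanned on Thy1 and then sorted by FACS for mCherry, which gave about 5000 cells. E18 cells, about 50000, were immunopanned on Thy1 and not sorted. Age, vector, sort and cell number therefore cannot be told apart between adult and E18 libraries. The age of the adults in weeks and the promoter of the vector are not given in the sources used here. Nothing in the labels says that the 2 libraries of a group came from separate animals, so the p-values rest on library-to-library spread that could be technical alone.

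A single alpha subunit forms the pore, the voltage sensors and the inactivation gate, and beta subunits alter gating and surface density and hold the channel to other cell surface proteins. Nav1.3, encoded by Scn3a, is known as the embryonic and neonatal channel of the rodent brain, whereas Nav1.1 (Scn1a), Nav1.2 (Scn2a) and Nav1.6 (Scn8a) are the alpha subunits of the mature brain. During myelination of the optic nerve Nav1.2 is replaced by Nav1.6 at nodes of Ranvier, the gaps in myelin where the action potential is renewed. The beta3 subunit (Scn3b) binds the pore without a covalent bond, and beta2 and beta4 (Scn2b, Scn4b) bind it through a disulfide bond. The deposited values are FPKM, fragment counts scaled by transcript length and library depth, for a whole gene. They show the RNA level of each subunit gene in a bulk library. Exons of 1 gene that alternate with age, such as the neonatal and adult forms of a voltage sensor exon, were not analysed here.

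Listed FPKM values summed to between 340208 and 392955 per library, and read counts were not used, so depth is unknown. Libraries of 1 group correlated at r from 0.980 to 0.985 over genes (log2 values), the adult groups correlated with each other at 0.960 to 0.962, and the r between an adult and an E18 library was 0.692 to 0.701. All 10 RGC markers had an entry. Their summed level was 1837 to 1873 FPKM in miR-1247 libraries, 3001 to 3056 FPKM in control libraries and 3825 to 3834 FPKM in E18 libraries. Markers of other retinal cells were listed in part (3 of 7 for amacrine cells, 2 of 4 for rods, 3 of 5 for bipolar cells, 4 of 7 for Müller glia and astrocytes, 1 of 3 for oligodendrocytes, 2 of 4 for progenitors), and none of the 3 microglial or the 3 endothelial markers had an entry.

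The alpha subunit genes Scn3a, Scn2a, Scn1a and Scn9a lie in a row on mouse chromosome 2 (mm39) in a cluster of 1178 kilobases. In the order of the chromosome, the assembled locus of Scn3a spans 65287462 to 65405589 on the minus strand, that of Scn2a 65451101 to 65597797 on the plus strand, and that of Scn1a 66101125 to 66271181 on the minus strand. The locus of Scn9a, which encodes Nav1.7, spans 66271221 to 66465296 on the minus strand and begins 39 bases past that of Scn1a. Scn9a is a family gene outside the 7 named ones, and it was looked at because it is an alpha subunit gene with an entry. Scn8a lies alone on chromosome 15 (100768564 to 100943819, plus strand). Scn3b (40180513 to 40202914) and Scn2b (44990481 to 45046904) both lie on the plus strand of chromosome 9, 4788 kilobases apart. The canonical transcript of each of the 5 alpha subunit genes has 27 exons (GENCODE vM39), against 4 for Scn2b and 6 for Scn3b. The assembled Scn2b locus begins before the annotated gene (45029080 to 45041368) and also holds Jaml, a protein-coding gene of the same strand, and the antisense RNA Gm10684. The assembled Scn9a locus likewise reaches beyond the annotated gene (66310424 to 66465306). It overlaps the 5′ end of the annotated Scn1a gene, which lies on the same minus strand and extends to 66271572. Antisense RNAs are annotated within the loci of Scn1a, Scn3a, Scn8a and Scn9a, and, since the named kit is not stranded, their reads cannot be told apart from those of the channel gene. How reads that match more than 1 of these related genes were divided is not given in the sources used here.

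Promoter sequences are shown for 3 genes that were higher in adult control than in E18 RGCs, as examples of how unlike their start regions are. Each is the 250 bases before the annotated start in RefSeq (GRCm38.p6), 5′ to 3′ on the strand of the gene, with CpG dinucleotides in capitals. The Scn1a window (chr2:66440838-66441087, minus strand) holds 4 CpG, the Scn2b window (chr9:45117626-45117875, plus strand) holds 1, and the first of the 2 Scn8a windows (chr15:100870395-100870644, plus strand) holds 30. The second Scn8a window (chr15:100936021-100936270, plus strand), which is not shown, holds 9, so the start regions of Scn8a also differ from each other.
Scn1a promoter: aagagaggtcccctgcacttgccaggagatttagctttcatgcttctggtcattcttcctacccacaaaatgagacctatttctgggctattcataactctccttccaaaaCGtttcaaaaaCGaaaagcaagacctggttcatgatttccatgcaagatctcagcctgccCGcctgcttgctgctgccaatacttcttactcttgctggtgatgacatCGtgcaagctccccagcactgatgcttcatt
Scn2b promoter: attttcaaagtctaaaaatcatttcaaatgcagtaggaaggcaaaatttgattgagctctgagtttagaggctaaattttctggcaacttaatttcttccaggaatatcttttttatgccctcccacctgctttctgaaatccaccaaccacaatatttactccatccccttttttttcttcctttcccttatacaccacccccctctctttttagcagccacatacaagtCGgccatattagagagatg
Scn8a promoter: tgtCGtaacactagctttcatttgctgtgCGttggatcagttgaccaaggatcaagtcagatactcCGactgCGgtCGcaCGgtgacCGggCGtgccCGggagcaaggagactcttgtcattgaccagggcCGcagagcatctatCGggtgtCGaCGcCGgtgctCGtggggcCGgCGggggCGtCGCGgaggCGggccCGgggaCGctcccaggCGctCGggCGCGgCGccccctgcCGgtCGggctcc

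With the 50 bases after the start included, the Scn1a window holds 5 CpG, the Scn2b window 2 and the Scn8a windows 38 and 12. Over the 32851 RefSeq windows of that length the median was 7 CpG and the quartiles were 3 and 20, so the first Scn8a window lay above the upper quartile, the second between the quartiles and the Scn2b window below the lower one. Both strands of each window were searched for the TATA box letters TATAAA, which 13.6% of all windows held, and for the left and right parts of the RE1 element bound by the repressor REST. The left part (TTCAGCACC) was in 0.371% of all windows and the right part (GGACAGC) in 6.56%. RefSeq gave 7 windows for 5 of the genes with an entry (Scn1a, Scn2a, Scn2b, Scn8a and Scn9a). One of the Scn2a windows held TATAAA, and no window of these 5 genes held either RE1 part. The full RE1 letters were in 0.00913% of all windows, so their absence was likely beforehand. Elements with other letters or outside these windows were not searched, and the absence says nothing about binding of REST to these genes.

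The first comparison asks which sodium channel genes differ between adult control and E18 RGCs. Alpha subunit transcripts of the mature brain were higher in adult control RGCs, Scn1a by 7.42-fold, Scn2a by 3.19-fold and Scn8a by 3.07-fold in mean FPKM, and Scn2b was higher by 14.9-fold. Scn3a and Scn3b were lower, at 0.685 and 0.532 of the E18 level. Of the 6 genes measured, 4 were higher and 2 were lower at an adjusted p under 0.05 (limma on log2(FPKM + 1), Benjamini-Hochberg over 9987 genes). In this comparison 70.1% of all genes tested were called, 29.8% higher and 40.2% lower, so a call by itself was common. The median fold change of the 6 genes was 1.56 on the log2(FPKM + 1) scale, against -0.16 over all genes tested. In bulk libraries, fewer cells of a type and less RNA per cell cannot be told apart.

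Scn1a (Nav1.1) measured 42.3 and 42.6 FPKM in adult control libraries, against 5.54 and 5.90 FPKM in E18 libraries. All adult control values lay far above the E18 values, and libraries of a group were close to each other. The log2 fold change was 2.69 ± 0.108 (standard error; adjusted p = 2.53e-06, limma), and 97.6% of all genes tested had a lower one. Scn2a (Nav1.2) measured 40.8 and 48.3 FPKM in adult control libraries, against 14.4 and 13.6 FPKM in E18 libraries, so the groups did not overlap. Its log2 fold change was 1.60 ± 0.104 (adjusted p = 2.01e-05, limma). Scn8a (Nav1.6), the channel of mature nodes and of the distal axon initial segment, stood at 27.1 and 29.0 FPKM in adult control libraries, against 10.2 and 8.09 FPKM in E18 libraries. The lowest adult control value was again well above the highest E18 value, with a log2 fold change of 1.53 ± 0.127 (adjusted p = 6.26e-05, limma).

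Scn3a (Nav1.3) went the other way. It measured 15.5 and 11.9 FPKM in adult control libraries, against 20.5 and 19.5 FPKM in E18 libraries. The groups were apart, and the control libraries lay farther from each other than the E18 libraries did. The log2 fold change was -0.52 ± 0.138 (adjusted p = 0.0130, limma). This call was lost when control library 2, E18 library 1 or E18 library 2 was left out (adjusted p = 0.0510, 0.0779 and 0.0562, limma), and the log2 fold change then ranged from -0.70 to -0.35 over the 6 single omissions. Scn3a thus averaged 13.7 ± 2.54 FPKM in adult control libraries, against 20.0 ± 0.673 FPKM in E18 libraries (mean ± SD, n = 2 libraries each, as for every mean given here).

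The alpha subunit gene with the steepest fall was Scn9a, outside the 7 named genes. Nav1.7, its product, is known from peripheral sensory and sympathetic neurons. Scn9a measured 1.88 and 1.42 FPKM in adult control libraries, against 20.4 and 21.7 FPKM in E18 libraries. It was the most abundant alpha subunit transcript of E18 libraries together with Scn3a, whose range it overlapped, and the least abundant of adult ones. The log2 fold change was -3.06 ± 0.194 (adjusted p = 1.73e-05, limma), and 1.47% of all genes tested had a lower one. Scn9a and Scn1a, whose assembled loci nearly touch, moved in opposite directions, and how reads at the overlap of the Scn9a locus with annotated Scn1a were divided was not tested.

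**Figure D1:**
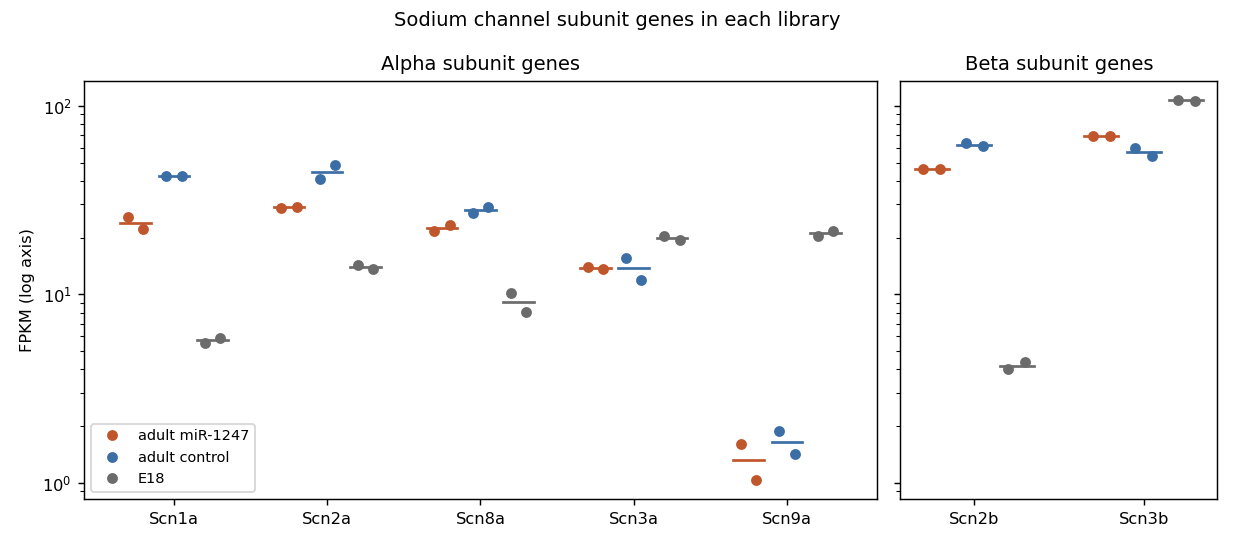
FPKM (log axis) of each sodium channel subunit gene with an entry, with 1 point per library and a bar at the group mean, for adult miR-1247, adult control and E18 RGCs. Scn1a, Scn2a, Scn8a and Scn2b lie higher in adult control than in E18 libraries, and Scn3a, Scn9a and Scn3b lie lower.

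Among the beta subunits, Scn2b, whose product beta2 is disulfide-linked to the pore, measured 63.4 and 61.0 FPKM in adult control libraries, against 4.01 and 4.35 FPKM in E18 libraries. Both groups were tight and far apart. The log2 fold change was 3.61 ± 0.0863 (adjusted p = 3.54e-07, limma), and 99.1% of all genes tested had a lower one. These values are of the assembled locus that also spans Jaml. Scn3b, whose product beta3 binds without a covalent bond, measured 59.7 and 54.1 FPKM in adult control libraries, against 107.3 and 106.6 FPKM in E18 libraries. The E18 values were the higher ones throughout, with a log2 fold change of -0.90 ± 0.0666 (adjusted p = 3.60e-05, limma). The calls for Scn1a, Scn2a, Scn8a, Scn2b, Scn3b and Scn9a between adult control and E18 held in each of the 6 fits with 1 library left out and under each of the 10 other settings tried.

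FPKM is scaled by length, so the subunit genes were set side by side within a library. The values of Scn9a and Scn2b are of assembled loci that reach beyond the annotated genes. How far this alters the shares and ratios was not tested. Summed over the 5 alpha subunit genes with an entry, the level was 130.4 ± 4.02 FPKM in adult control libraries, against 69.9 ± 1.51 FPKM in E18 libraries. Of this sum, Scn1a took 32.6% ± 0.837 in adult control and 8.20% ± 0.535 in E18 libraries, and Scn2a took 34.1% ± 3.05 in adult control and 20.0% ± 0.354 in E18 libraries. Scn8a made up 21.5% ± 0.347 in adult control and 13.0% ± 1.81 in E18 libraries. Scn3a made up 10.5% ± 2.27 in adult control and 28.6% ± 0.344 in E18 libraries, and Scn9a 1.27% ± 0.285 in adult control and 30.1% ± 1.97 in E18 libraries. Scn3a and Scn9a together were thus the larger part of the alpha subunit transcripts in both E18 libraries and a small part in both adult control libraries. Within each library, the ratio of Scn1a to Scn3a was 2.73 and 3.57 in adult control and 0.271 and 0.302 in E18 libraries, and this ratio does not depend on how libraries are scaled to each other. The ratio of Scn1a to Scn9a was 22.5 and 29.9 in adult control and 0.272 in both E18 libraries.

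Scn2b and Scn3b were set against each other in the same way, with no other beta subunit gene in the sum. Their sum was 119.1 ± 5.71 FPKM in adult control libraries, against 111.1 ± 0.226 FPKM in E18 libraries. Scn2b made up 52.2% ± 1.04 of it in adult control and 3.76% ± 0.223 in E18 libraries, and Scn3b made up 47.8% ± 1.04 in adult control and 96.2% ± 0.223 in E18 libraries. The ratio of Scn2b to Scn3b was 1.06 and 1.13 in adult control and 0.0374 and 0.0408 in E18 libraries. Scn3b was therefore by far the more abundant of the pair at E18, and the levels of Scn2b (62.2 ± 1.74 FPKM) and Scn3b (56.9 ± 3.97 FPKM) were close in adult control RGCs. These shares are descriptions by library and carry no test.

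**Figure D2:**
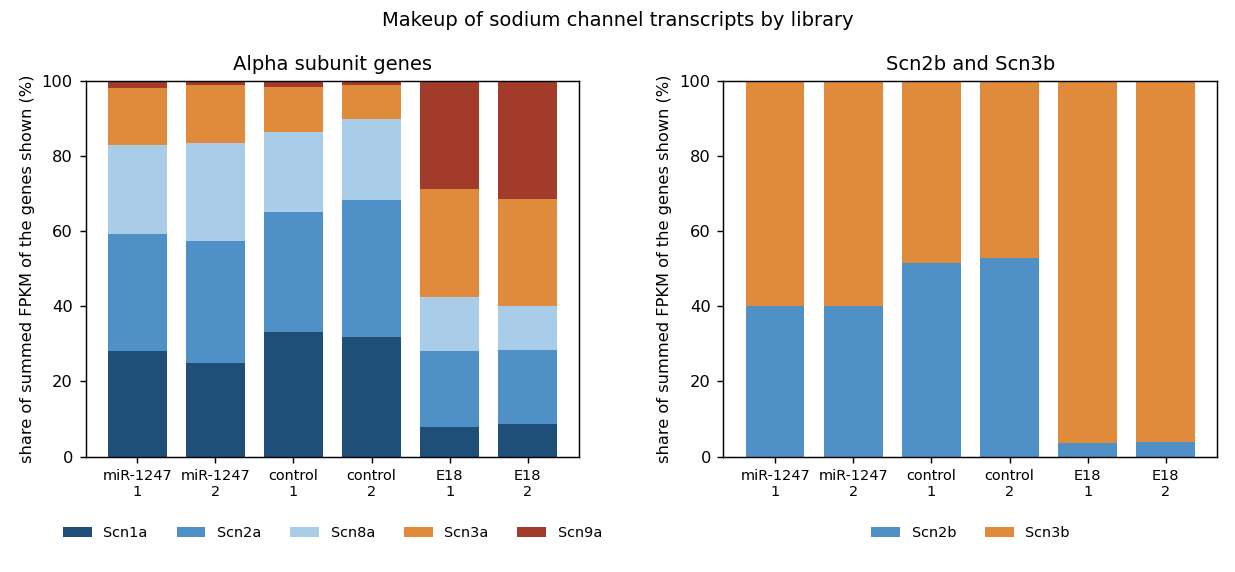
Share of each gene in the summed FPKM of 5 alpha subunit genes (left) and of Scn2b and Scn3b (right), in percent, with 1 stacked bar per library for adult miR-1247, adult control and E18 RGCs. In E18 libraries Scn3a and Scn9a (orange and red, left) and Scn3b (orange, right) hold most of the bar, and in adult libraries the blue shades of Scn1a, Scn2a and Scn8a hold most of the left bar, while Scn2b (blue, right) makes up 40.1% in miR-1247 and 52.2% in control libraries.

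The order of the levels differed between the groups. In miR-1247 libraries the order was Scn3b, Scn2b, Scn2a, Scn1a, Scn8a, Scn3a and Scn9a, and Scn1a and Scn8a overlapped in range. In adult control libraries the order was Scn2b (62.2 FPKM), Scn3b, Scn2a, Scn1a, Scn8a, Scn3a and Scn9a (1.65 FPKM), and Scn2a and Scn1a were the only neighbours whose library ranges overlapped. In E18 libraries it began with Scn3b (106.9 FPKM), followed by Scn9a and Scn3a, which overlapped, then Scn2a, Scn8a, Scn1a and Scn2b, none overlapping its neighbour. Scn3a and Scn9a stood at the bottom of both adult orders and next to Scn3b at E18, and Scn2b stood in the upper ranks of both adult orders and at the bottom at E18.

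Scn1a, Scn2a, Scn8a and Scn2b share their direction between adult control and E18 with most listed markers of other retinal cells. Of all genes tested, 70.1% were called in this comparison, 29.8% higher and 40.2% lower, so a call by itself was common. All 4 listed Müller glia and astrocyte markers (Aldoc, Dkk3, Apoe and Glul) were higher in adult control libraries, with a summed level of 1063 to 1408 FPKM there, against 122 to 126 FPKM in E18 libraries. The control libraries differed widely for Glul, at 463.5 and 121.8 FPKM, against 80.1 and 84.7 FPKM in E18 libraries (adjusted p = 0.041, limma). The 3 listed amacrine markers (Gad2, Npy and Slc6a9) summed to 130.3 to 151.6 FPKM in adult control libraries, against 1.13 to 3.41 FPKM in E18 libraries, and all 3 were called higher. Both listed rod markers (Rom1, Reep6) were higher too, summing to 44.6 to 46.1 FPKM in adult control libraries, against 5.30 to 6.41 FPKM in E18 libraries, while Gnat1 and Nrl had no entry. Bipolar markers summed to 25.2 to 30.0 FPKM in adult control libraries, against 11.3 to 12.7 FPKM in E18 libraries (2 of 3 higher). Mbp of oligodendrocytes was at 24.3 to 24.9 FPKM in adult control libraries, against 9.15 to 11.5 FPKM in E18 libraries (called higher). The 2 listed progenitor markers, Hes6 and Dapl1, were lower, and Dapl1 was listed at 0 in all adult libraries. The part of these markers' cells in the subunit values was not tested. RGC markers moved both ways, with 3 of 10 higher (Nefh, Thy1 and Slc17a6) and 7 lower, led by Isl1.

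Genes of the sites where sodium channels cluster, the axon initial segment and the node of Ranvier, were then taken as a list of 24, of which 21 were tested. Between adult control and E18, 11 were higher, 8 were lower and 2 were not called, with a median log2 fold change of 0.40 against -0.16 over all genes and 70.1% of all genes called. The potassium channels of the juxtaparanode, Kcna1 and Kcna2, led the higher ones, at log2 fold changes of 4.03 and 3.32. Kcna1 measured 33.9 and 34.3 FPKM in adult control libraries, against 0.843 and 1.49 FPKM in E18 libraries. Cntnap1, the paranodal Caspr (2.27), and Kcnc1, a fast potassium channel (2.22), followed. The lower ones were led by Vcan, a matrix proteoglycan (-3.04), Trim46, which organises microtubules of the proximal axon (-1.56), the spectrin Sptan1 (-1.44) and the adhesion molecule Nrcam (-1.13). Ank3, whose product ankyrin-G anchors sodium channels at both sites, was slightly lower, with 39.6 and 40.7 FPKM in adult control libraries, against 49.1 and 44.4 FPKM in E18 libraries (log2 fold change -0.22 ± 0.0798, adjusted p = 0.0471, limma). Ank3 was named for this role after its values were seen. Under median ratio scaling the counts of the list were 12 higher and 6 lower.

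Proteins that bind or modify alpha subunits were a list of 19, of which 18 were tested, with 8 higher, 8 lower and 2 not called between adult control and E18, where 70.1% of all genes were called (median log2 fold change -0.03, and 0.11 under median ratio scaling). Fgf14, a fibroblast growth factor homologous factor that binds the tail of the alpha subunit, measured 32.7 and 32.4 FPKM in adult control libraries, against 3.90 and 3.81 FPKM in E18 libraries. Its log2 fold change was 2.79, and that of its relative Fgf11 was 1.79. Tnr, an extracellular matrix protein that binds beta subunits, had 3.36, and Dpysl2, a relative of Crmp1, had 0.88. The lower ones were led by Crmp1, a collapsin response mediator (-3.85), S100a10, which helps some channels reach the surface (-1.96), the ubiquitin ligase Nedd4l (-1.01) and the kinase subunit Csnk2b (-1.01). Nalcn, a relative of the sodium channels that carries a leak current, and its partner Unc80 were also higher in adult control than in E18 libraries. Nalcn measured 25.9 and 30.1 FPKM in adult control libraries, against 6.06 and 6.50 FPKM in E18 libraries. Unc80 measured 34.0 and 35.2 FPKM in adult control libraries, against 0.839 and 0.917 FPKM in E18 libraries. Their log2 fold changes were 1.99 (adjusted p = 1.05e-05) and 4.25 (adjusted p = 4.78e-07, both limma), and Unc79, the other partner, was not called (-0.30, adjusted p = 0.113).

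Neuronal RNA-binding proteins that choose exons, channel exons among them, were a list of 16, all tested. Of these, 6 were higher, 7 were lower and 3 were not called between adult control and E18, where 70.1% of all genes were called (median log2 fold change 0.08). Mbnl2 (2.60), Mbnl1 (1.36), Celf4 (1.22) and Nova1 (0.64) were the higher ones with the largest fold changes. Ptbp2 (-1.60), Khdrbs3 (-1.19), Rbfox2 (-1.19) and Nova2 (-1.18) were the lower ones with the largest fold changes. Mbnl2, a splicing factor of late development, measured 45.0 and 41.9 FPKM in adult control libraries, against 7.23 and 5.53 FPKM in E18 libraries. Ptbp2, a repressor of adult exons in embryonic neurons, measured 27.7 and 28.3 FPKM in adult control libraries, against 94.4 and 80.2 FPKM in E18 libraries. The REST complex, which represses neuronal genes including sodium channels in non-neuronal cells, was a list of 10, of which 9 were tested. None was higher and 8 were lower (limma; 0 higher and 9 lower at an unadjusted p under 0.05; median log2 fold change -0.75), where 40.2% of all genes tested were lower and their median was -0.16. The lower ones were led by Rcor2 (-3.55), Kdm1a (-1.86), Hdac2 (-1.70) and Hdac1 (-1.26), and the counts were 0 higher and 6 lower under median ratio scaling. Rest itself was the gene not called, at 1.27 and 1.35 FPKM in adult control libraries, against 1.91 and 3.06 FPKM in E18 libraries.

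**Figure D3:**
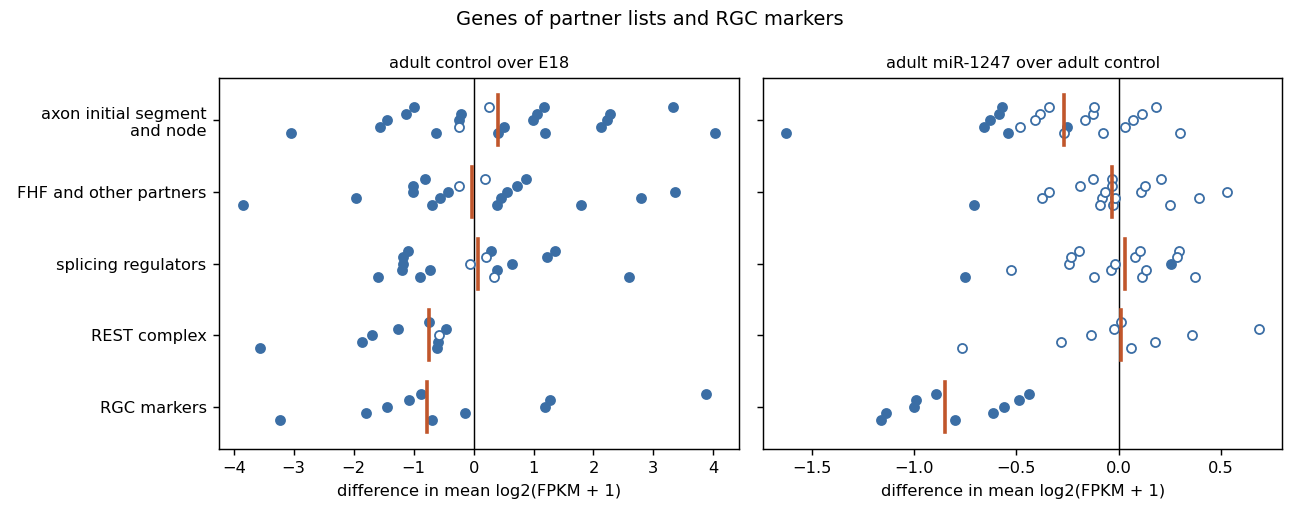
Difference in mean log2(FPKM + 1) of each tested gene of the partner lists and of the RGC markers, for adult control over E18 (left) and adult miR-1247 over adult control (right), with filled points for an adjusted p under 0.05 and red bars at the list medians. The REST complex genes lie below 0 at left, and all 10 RGC markers lie below 0 at right.

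The second comparison asks how the sodium channel genes of adult RGCs differed with the miR-1247-5p mimic. Scn1a, Scn2a and Scn2b were lower in miR-1247 than in control libraries, at 0.566, 0.649 and 0.743 of the control mean. Scn8a, Scn3b and Scn3a were not called. Of the 6 genes, 0 were higher and 3 were lower at an adjusted p under 0.05 (limma), where 9.75% of all genes tested were called, 3.53% higher and 6.22% lower. At an unadjusted p under 0.05, 1 was higher and 4 were lower. The median log2 fold change of the 6 genes was -0.365, against -0.03 over all genes tested. The count of lower genes was 3 of 6 under median ratio scaling and under equal totals too, and with median ratio scaling Scn3b was called higher.

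Scn1a measured 25.8 and 22.2 FPKM in miR-1247 libraries, against 42.3 and 42.6 FPKM in control libraries. Both miR-1247 values were below both control values, with a log2 fold change of -0.80 ± 0.108 (adjusted p = 0.0127, limma), and 2.32% of all genes tested had a lower one. Scn2a measured 28.7 and 29.1 FPKM in miR-1247 libraries, against 40.8 and 48.3 FPKM in control libraries, again without overlap. Its log2 fold change was -0.60 ± 0.104 (adjusted p = 0.0227, limma). Scn2b measured 46.1 and 46.4 FPKM in miR-1247 libraries, against 63.4 and 61.0 FPKM in control libraries, and the groups did not overlap. The log2 fold change of Scn2b was -0.42 ± 0.0863 (adjusted p = 0.0352, limma). These 3 calls rest on few libraries: with 1 of the 6 libraries left out, Scn1a was called in 3 of 6 fits (adjusted p from 0.0448 to 0.0747), Scn2a in 1 of 6 (0.0480 to 0.106) and Scn2b in 0 of 6 (0.0583 to 0.139), each with the same direction throughout (limma). With the replicate number as a block Scn2b was not called either (adjusted p = 0.0616, limma).

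Scn8a measured 21.6 and 23.2 FPKM in miR-1247 libraries, against 27.1 and 29.0 FPKM in control libraries, and the groups were apart. Its log2 fold change of -0.31 ± 0.127 did not pass (adjusted p = 0.170, limma). Scn3a was level between the groups, at 14.0 and 13.7 FPKM in miR-1247 libraries, against 15.5 and 11.9 FPKM in control libraries, and its ranges overlapped (log2 fold change 0.02 ± 0.138, adjusted p = 0.930, limma). Its sign turned with equal totals (-0.0709) and without control library 2 (-0.15). Scn3b stood at 69.0 FPKM in both miR-1247 libraries, against 59.7 and 54.1 FPKM in control libraries. The groups were apart, and the log2 fold change of 0.27 ± 0.0666 missed the threshold narrowly (adjusted p = 0.0514, limma). Outside the 7 named genes, Scn9a, Nalcn, Unc79 and Unc80 were not called, with log2 fold changes from -0.20 to 0.18.

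**Figure D4:**
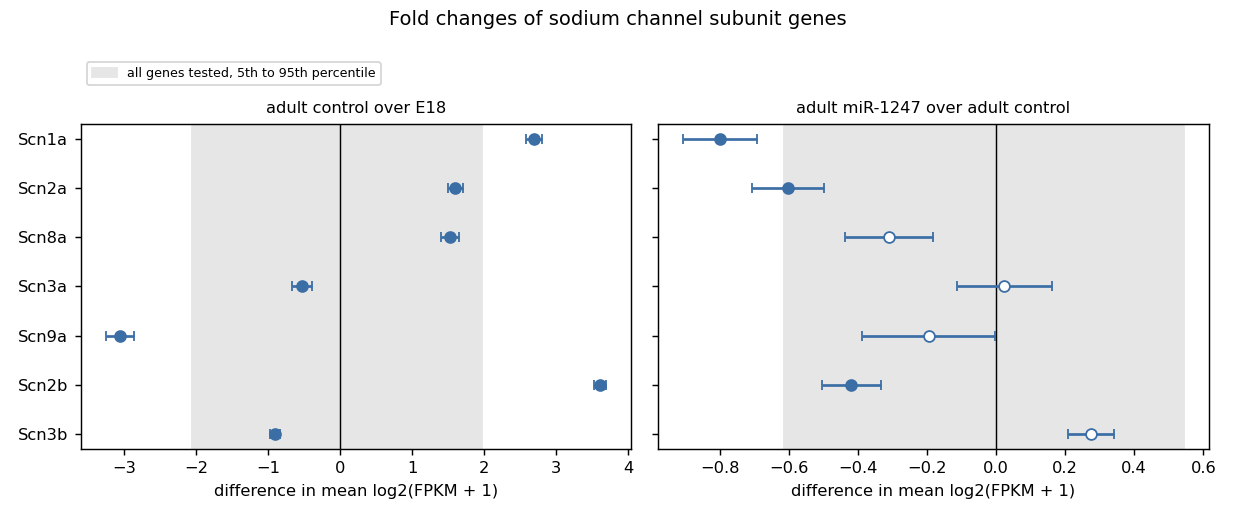
Difference in mean log2(FPKM + 1) with its standard error for each subunit gene, for adult control over E18 (left) and adult miR-1247 over adult control (right), with filled points for an adjusted p under 0.05 and a grey band from the 5th to the 95th percentile of all genes tested. At left Scn1a and Scn2b lie above the band and Scn9a below it, and at right Scn1a lies below it.

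In the makeup of the channel, the alpha subunit sum was 90.5 ± 1.76 FPKM in miR-1247 libraries and 130.4 ± 4.02 FPKM in control libraries. Scn1a made up 26.5% ± 2.25 of it in miR-1247 and 32.6% ± 0.837 in control libraries. Scn3a made up 15.3% in both miR-1247 libraries and 10.5% ± 2.27 in control libraries. The mean of Scn3a was level (13.8 and 13.7 FPKM), so its larger share came with the smaller sum. Scn8a made up 24.8% ± 1.76 in miR-1247, 21.5% ± 0.347 in control and 13.0% ± 1.81 in E18 libraries. The share of Scn8a thus lay farther from E18 in miR-1247 than in control libraries. Scn2a made up 31.9% ± 0.914 in miR-1247 and 34.1% ± 3.05 in control libraries, and Scn9a 1.46% ± 0.420 and 1.27% ± 0.285. Of the sum of Scn2b and Scn3b, Scn3b made up 59.9% ± 0.104 in miR-1247 and 47.8% ± 1.04 in control libraries. The ratio of Scn1a to Scn3a was 1.84 and 1.63 in miR-1247, 2.73 and 3.57 in control, and 0.271 and 0.302 in E18 libraries. The ratio of Scn2b to Scn3b was 0.668 and 0.672 in miR-1247, 1.06 and 1.13 in control, and 0.0374 and 0.0408 in E18 libraries. Both ratios of the miR-1247 libraries lay between those of the other groups. Over E18, the miR-1247 libraries gave 4 higher and 2 lower genes of 6, where 69.9% of all genes were called, 28.4% higher and 41.5% lower, and the median log2 fold change of the 6 genes was 1.11. One of the lower calls, that of Scn3a (adjusted p = 0.0158), was lost without miR-1247 library 1 or 2 (0.0556 and 0.0679) and without E18 library 1 or 2 (0.0879 and 0.0627, all limma). Log2 fold changes over E18 were 1.89 for Scn1a in miR-1247 libraries and 2.69 in control libraries, 0.997 and 1.60 for Scn2a, 1.22 and 1.53 for Scn8a, 3.19 and 3.61 for Scn2b, -0.50 and -0.52 for Scn3a, and -0.63 and -0.90 for Scn3b. These 2 comparisons share their E18 libraries.

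The RGC markers moved with this comparison. All 10 were lower in miR-1247 than in control libraries, with log2 fold changes from -1.16 (Nefm) to -0.44 (Thy1) and a median of -0.85, and 9 of the 10 were called under median ratio scaling. Of all genes tested, 6.22% were called lower and 3.53% higher, with a median log2 fold change of -0.03. Slc17a6, the glutamate transporter of RGC vesicles, measured 55.0 and 54.2 FPKM in miR-1247 libraries, against 124 and 119 FPKM in control libraries. The fold changes of Scn1a (-0.80) and Scn2a (-0.60) lay within the range of the RGC markers and that of Scn2b (-0.42) just above it. Those of Scn8a (-0.31), Scn3a (0.02) and Scn3b (0.27), which were not called, lay farther above it. The summed Müller glia and astrocyte markers were 1711 to 1824 FPKM in miR-1247 and 1063 to 1408 FPKM in control libraries (Dkk3 called higher, though not with equal totals). Much of this sum is Glul, at 795.5 and 631.6 FPKM in miR-1247 libraries, against 463.5 and 121.8 FPKM in control libraries. Glul was not called (adjusted p = 0.116, limma), nor were Aldoc (log2 fold change 0.004) and Apoe (0.21). The summed amacrine markers were 173 to 205 FPKM in miR-1247 libraries, against 130.3 to 151.6 FPKM in control libraries (none called). The summed bipolar markers were 40.4 to 40.9 FPKM in miR-1247 libraries, against 25.2 to 30.0 FPKM in control libraries (none of 3 called, 1 called higher under median ratio scaling). Rod markers summed to 24.3 to 26.9 FPKM in miR-1247 and 44.6 to 46.1 FPKM in control libraries (Rom1 called lower), and Mbp was 35.6 to 41.5 FPKM in miR-1247 and 24.3 to 24.9 FPKM in control libraries (called higher, though not with equal totals). The part of these markers' cells in the values of the channel genes was not tested.

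Of the 21 genes of the axon initial segment and node, 0 were higher and 7 were lower in miR-1247 than in control libraries (limma; 0 higher and 12 lower at an unadjusted p under 0.05; median log2 fold change -0.27), where 9.75% of all genes tested were called and 6.22% were lower. A fold change below 0 was found for 16 of the 21, and 9 were called lower with equal totals. The lower ones with the largest fold changes were Kcnk4, a leak potassium channel (-1.63), Kcna2 (-0.66), the adhesion molecule Cntn1 (-0.63) and Nfasc (-0.59), whose product neurofascin is an adhesion molecule of the axon initial segment and the node. Nfasc measured 24.5 and 22.5 FPKM in miR-1247 libraries, against 35.4 and 36.1 FPKM in control libraries, and Ank3 measured 26.6 and 26.7 FPKM in miR-1247 libraries, against 39.6 and 40.7 FPKM in control libraries (log2 fold change -0.57). Among the 18 channel partners, Fgf12 was lower, with 75.8 and 80.2 FPKM in miR-1247 libraries, against 124 and 132 FPKM in control libraries (log2 fold change -0.71, adjusted p = 0.0169, limma), and 17 were not called. Of the 16 splicing regulators, Elavl2 was lower (-0.75) and Elavl3, at a locus shared with Zfp653, was higher (0.26), though not with equal totals, where 0 were higher and 2 lower. None of the 9 REST complex genes was called (limma; 1 higher and 2 lower at an unadjusted p under 0.05), and 1 was lower with equal totals.

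The mature miR-1247-5p (RefSeq, GRCm38.p6, chr12:110278094-110278115, minus strand) is shown with its seed, bases 2 to 8, in capitals, because the letters it can pair with were searched in the subunit genes.
miR-1247-5p: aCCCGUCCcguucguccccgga
The seed pairs with GGACGGG. This match was in the 3′ UTR of the canonical transcript (GENCODE vM39) of 0 of the 7 named genes, where 2.26% of 20827 UTRs held it. The match to bases 2 to 7 with an A after it, GACGGGA, was in none of them either (1.97% of UTRs), nor was the 6-base match GACGGG (6.48% of UTRs). The same held for the UTRs of the 5 other alpha subunit genes searched (Scn4a, Scn7a, Scn9a, Scn10a and Scn11a). A match of letters is a description and not a binding site, and its absence says nothing about the microRNA.

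For each of the 6 genes, the 3 genes of the most similar pattern over the 6 libraries were found by the root mean square difference of centred log2(FPKM + 1). Scn1a was most like Ndnf (difference 0.0892), Map1a (0.119) and Cds1 (0.126), and Scn2a most like Ttll7 (0.0738), Nfe2l1 (0.0766) and Ccne2 (0.0866). Scn8a was most like Fam43a (0.0581), Dagla (0.0679) and Ptgr2 (0.0722), and Scn3a most like Magi1 (0.0250), Wdr59 (0.0513) and Cox6c (0.0533). Scn2b was most like the neuronal enolase Eno2 (0.0479), Gpr158 (0.0515) and Vsnl1 (0.0952), and Scn3b most like Dpysl4 (0.0345), Ftl1 (0.0392) and Rbm10 (0.0442). Eno2, for example, averaged 482 FPKM in miR-1247, 633 FPKM in control and 53.8 FPKM in E18 libraries, and Scn2b averaged 46.2 FPKM in miR-1247, 62.2 FPKM in control and 4.18 FPKM in E18 libraries.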

How the data were processed

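Poly-A libraries were made with a TruSeq kit from RNA with an integrity number of at least 9 and read as pairs of 100 bases, per the labels' protocols. Per the submitters' processing notes, which name no tool version, the authors used HISAT2, Cufflinks and Cuffdiff and the mm39 build, and deposited FPKM values. Every deposited FPKM value carries an added 1e-05, which was taken off. Of 11104 entries, tracking IDs of 1 gene name were summed, and names that share the same tracking IDs were taken once, which left 10162 genes. The authors' deposited log2 ratios of group means differed from recomputed ones by at most 0.00206 and were used for this check only. Depth is unknown, and no counting interval can be given.

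The 9987 genes whose mean reached 1 FPKM entered 1 fit of all 6 libraries with 3 group means (limma 3.58.1, R 4.3.3; log2 values with a pseudocount of 1; trended, moderated variances). The two-sided p-values were adjusted by Benjamini-Hochberg over these genes and called at 0.05. A log2 fold change is a difference of group means on that scale, so it understates the change of low genes, and ratios in the text are of mean FPKM. The fit was also run on simulated data with independent noise and known changes in a small part of the genes. That setting differs from the comparisons with E18, where most genes were called. It says nothing about replicates that could be technical alone. Matplotlib 3.10.9, pandas 2.3.3 and NumPy 2.4.6 under Python 3.11.15 made the figures and tables.

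All 7 named genes, the other sodium channel subunit genes looked for, up to 4 called genes in each direction of each other list and 3 similar genes for each member are named. The members and lists were chosen with earlier results of these data known. A few other genes of the lists, including family genes, are not reported here and were left out of the lists, counts and sums. The expression of Scn4a, Scn4b, Scn7a, Scn10a and Scn11a was not analysed here. Alternatives were other pseudocounts, filters, scalings, single tracking IDs, no variance trend, a replicate block, 4 libraries only, and each library left out.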

Additional observations from a re-analysis of the deposited data

How the results depend on the processing

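Between adult control and E18, and between miR-1247 and E18, the number of genes called stayed within 1.5 times the reported one under every setting tried. The number between miR-1247 and control did not: it was 343 with no variance trend, 584 with the replicate block, 347 with only the 4 libraries compared and 121 to 242 with 1 library left out (121 and 139 without miR-1247 library 1 or 2, 185 and 177 without control library 1 or 2, 239 and 242 without E18 library 1 or 2), against 974; fewer libraries or fewer degrees of freedom enter those fits, and for the missing trend the cause was not tested. The share of higher genes among the calls was 42.6% between adult control and E18 and 50.2% with median ratio scaling (3427 higher, 3400 lower), and between miR-1247 and control 36.2%, 46.6% with median ratio scaling (460 higher, 527 lower) and 15.1% with equal totals (136 higher, 764 lower). Median ratio scaling put the median fold change of all genes between adult control and E18 at -0.02, against -0.16.

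Between miR-1247 and control, Scn2a (-0.60) missed the threshold with no variance trend (adjusted p = 0.0546, limma) and with only 4 libraries (0.0550), and Scn2b (-0.42) with no variance trend (0.0641) and with the replicate block (0.0616). Scn3b passed with a pseudocount of 10 (0.24, 0.0471), a mean of at least 5 FPKM (0.27, 0.0473) and median ratio scaling (0.31, 0.0383). Scn3a turned to -0.0709 with equal totals (0.777). The cause was not tested. Between miR-1247 and E18, Scn3a missed the threshold with median ratio scaling (-0.32, 0.0780). With 1 library left out, log2 fold changes between miR-1247 and control ran from -0.90 to -0.70 for Scn1a, -0.72 to -0.48 for Scn2a, -0.45 to -0.39 for Scn2b, 0.20 to 0.34 for Scn3b and -0.15 to 0.20 for Scn3a. Those of Scn3a ran from -0.70 to -0.35 between adult control and E18 and from -0.53 to -0.47 between miR-1247 and E18.

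Replicate numbers are shared between groups, but same-numbered libraries did not deviate together (r of the difference between library 1 and library 2 from -0.00812 to 0.00353 over genes), so the replicate block is a sensitivity check and no pairing; it changed no call of a subunit gene other than Scn2b.

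With Scn9a left out of the sum, Scn3a made up 15.5% of the alpha subunits in miR-1247 libraries, and in E18 libraries Scn1a made up 11.7%, Scn2a 28.6%, Scn3a 41.0% and Scn8a 18.6%. These shares move because fewer genes enter the sum.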
